A study of Mus musculus with 6 samples.

Results

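The 36 genes described here are those that dividing cells switch on to copy their DNA and to separate the copies. They were taken by symbol: every row of the deposited count table whose Ensembl identifier mapped to a listed symbol was used, and all 36 listed genes were found among the 16289 genes of the table. By their known roles, 22 act in or prepare mitosis, 10 serve DNA replication and nucleotide supply, 2 are D-type cyclins of the G1 phase, and 2 (E2f1 and Foxm1) are transcription factors. The study measured RNA in whole tibialis anterior, a shin muscle, of 12-week-old male wildtype C57BL/6J mice, 14 days after glycerol had been injected into it. Glycerol destroys muscle fibres, and the muscle is then rebuilt by its stem cells while fat-forming progenitors expand. The 3 glycerol+melatonin muscles came from mice that received glycerol and melatonin, a pineal hormone, and the 3 glycerol muscles from mice that received glycerol and a control treatment. All 6 muscles were injured, and none from an uninjured mouse or another day was analysed here. How much melatonin was given, by which route and when, is not stated in the sources used here.

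Most of these genes work in a pair of well-known programmes. Before S phase, D-type cyclins with CDK4 and CDK6 inactivate the retinoblastoma protein, which frees E2F factors to switch on the replication genes. Later, in G2, the MuvB complex with B-MYB and FOXM1 switches on the mitotic genes through an element called CHR, often with the CCAAT-box factor NF-Y. In injured muscle, the cells that divide include activated stem cells (satellite cells), macrophages, fibro-adipogenic progenitors and endothelial cells, and most of this division is known to take place in the first week, whereas day 14 falls in the phase in which fibres mature. RNA of a whole muscle is an average over all its cells, so fewer cells of a type and less RNA per cell cannot be told apart in any value below.

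The libraries held 39310361 to 48879045 counted reads each, and the 36 genes had between 24 and 2319 reads per library. The 3 muscles of each condition are biological replicates according to the design text. Tibialis anterior is the labelled tissue, whereas the labels' extraction text names longissimus dorsi, a muscle of the back. The fibre markers fixed for the check were abundant in every library, with skeletal actin Acta1 at 24030 to 37500 CPM (a read count relative to the library's size, scaled by TMM factors) in the glycerol+melatonin muscles and at 35251 to 41229 CPM in the glycerol muscles. As markers of skeletal muscle fibres in general, they do not tell which muscle was sampled. Between muscles, log2 CPM over all genes correlated at 0.964 to 0.977 within a group and at 0.947 to 0.972 between the groups.

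At day 14 the genes were expressed at low but readily counted levels. Per kilobase of each gene's longest annotated transcript, 31 of the 36 lay below the median gene of the table, which stood at 3.29 CPM per kilobase. All 22 mitotic genes were among them, with a median of 1.08 CPM per kilobase. Such ranks depend on the choice of transcript and on the absence of low genes from the table. The 10 replication genes had a median of 2.76 CPM per kilobase, and 4 of them, Pcna, Mcm7, Rrm1 and Rrm2, lay above the median gene. Pcna, the sliding clamp that holds DNA polymerase on its template, was the highest of all at 17.4 CPM per kilobase. Next among the replication genes stood Mcm7, a subunit of the replicative helicase, at 5.95 CPM per kilobase, and Rrm1, the large subunit of ribonucleotide reductase, at 5.36 CPM per kilobase. The leading mitotic genes per kilobase were Ccnb2, a B-type mitotic cyclin, at 2.89, Ccna2, the cyclin of S phase and G2, at 2.61, and Aurka, a spindle-pole kinase, at 2.21 CPM per kilobase. Cenpf and Cenpe, large proteins of the kinetochore, were lowest, at 0.212 and 0.218 CPM per kilobase.

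Melatonin was compared with the control treatment for each gene with the quasi-likelihood test of edgeR, adjusted by Benjamini-Hochberg over all 16259 genes tested. None of the 36 genes passed at an adjusted p under 0.05. Of all genes tested, 12 (0.0738%) passed, 0.0185% higher and 0.0554% lower with melatonin. Among the 36, adjusted p-values from edgeR ran from 0.209 for Kif20a to 0.954 for Bub1b, and the standard errors of the log2 fold changes ran from 0.14 for Pcna to 0.67 for Foxm1. At an unadjusted edgeR p under 0.05 stood 2 of the 36, against 19.5% of all genes tested: Birc5 was higher with melatonin, as were 10.1% of all genes at that p, and Kif20a lower, as were 9.39%. DESeq2 called 5.01% of the genes it tested and limma-voom with sample weights 1.22%, and neither called any of the 36. The groups did not overlap for 2 genes that were higher with melatonin, Birc5 and Ccnb2, where 13.6% of all genes did the same, and for 1 that was lower, Kif20a, against 12.5% of all genes. Among the 36, the counts at an unadjusted p under 0.05 and without overlap were thus smaller shares than over the whole table.

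**Figure D1:**
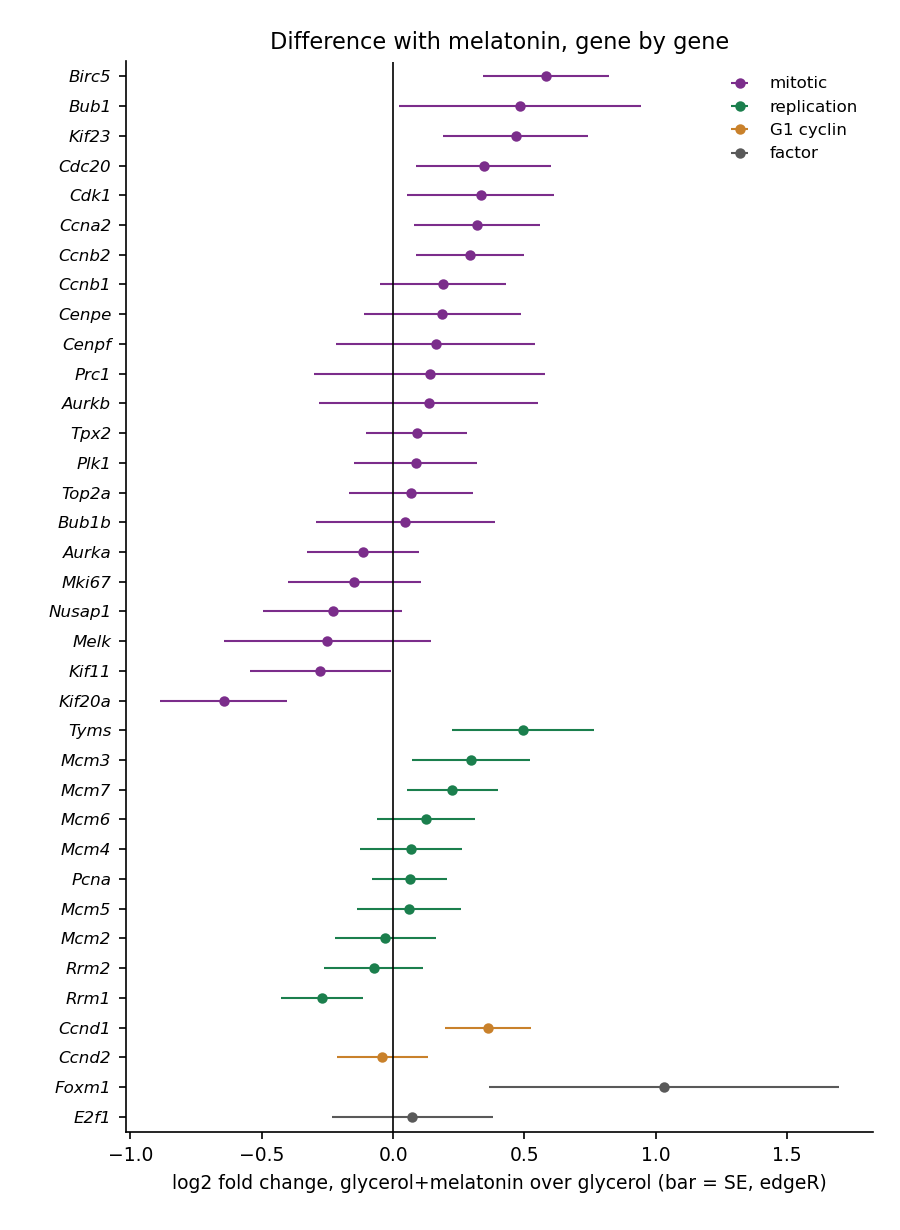
Log2 fold change (glycerol+melatonin over glycerol, 3 muscles each) of each of the 36 genes, with its standard error as a bar, by role. The values run from -0.65 for Kif20a to 1.03 for Foxm1, 26 of 36 lie above 0, and none passed the test.

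The replication genes, which act in S phase, were set beside the mitotic genes at this day. The median log2 fold change was 0.14 over the 22 mitotic genes and 0.07 over the 10 replication genes, a difference of 0.07, against 0.02 over all genes tested. With means over genes of log2 CPM instead of medians, the sets hardly differed. The melatonin group then stood 0.10 higher for the mitotic and 0.09 higher for the replication genes. Fold changes were above 0 for 16 of 22 mitotic and for 7 of 10 replication genes, and for 26 of all 36, against 51.7% of all genes. Both medians moved with single muscles. Without glycerol replicate 2 the mitotic median was -0.02 and the difference between the sets -0.07, and 18 of the 36 genes stood above 0. Without glycerol+melatonin replicate 2 the mitotic median was also -0.02, the replication median 0.01, and 19 genes stood above 0. Scaling by library size alone shifted the median of all genes to 0.23, the mitotic median to 0.38 and the replication median to 0.28, so that relative to all genes the mitotic set stood 0.15 and the replication set 0.05 higher.

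Summed over the 10 replication genes, the muscles were nearly level. The sums were 128, 135 and 127 CPM in the glycerol+melatonin muscles and 130.2, 123 and 130.4 CPM in the glycerol muscles, or 129.8 ± 4.54 CPM with melatonin and 128 ± 4.39 CPM without it (SD, n = 3 each). The sums over the 22 mitotic genes were 80.1, 120.3 and 104.8 CPM in the glycerol+melatonin muscles and 115, 74.7 and 99.8 CPM in the glycerol muscles. Their means were 102 ± 20.3 CPM with melatonin and 96.5 ± 20.4 CPM without it (SD, n = 3 each). The highest of the 6 muscles had 1.61 times the mitotic sum of the lowest, and 1.10 times for the replication sum. Such sums weigh abundant genes most, which among the replication genes were Rrm1 (mean 29.3 CPM), Pcna (26.5 CPM) and Mcm7 (17.6 CPM). With each gene centred on its own mean and weighted alike, log2 CPM ranged from -0.16 to 0.15 for replication and from -0.43 to 0.35 for mitotic genes. Within both groups the mitotic sums spread far more than the group means differed.

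**Figure D2:**
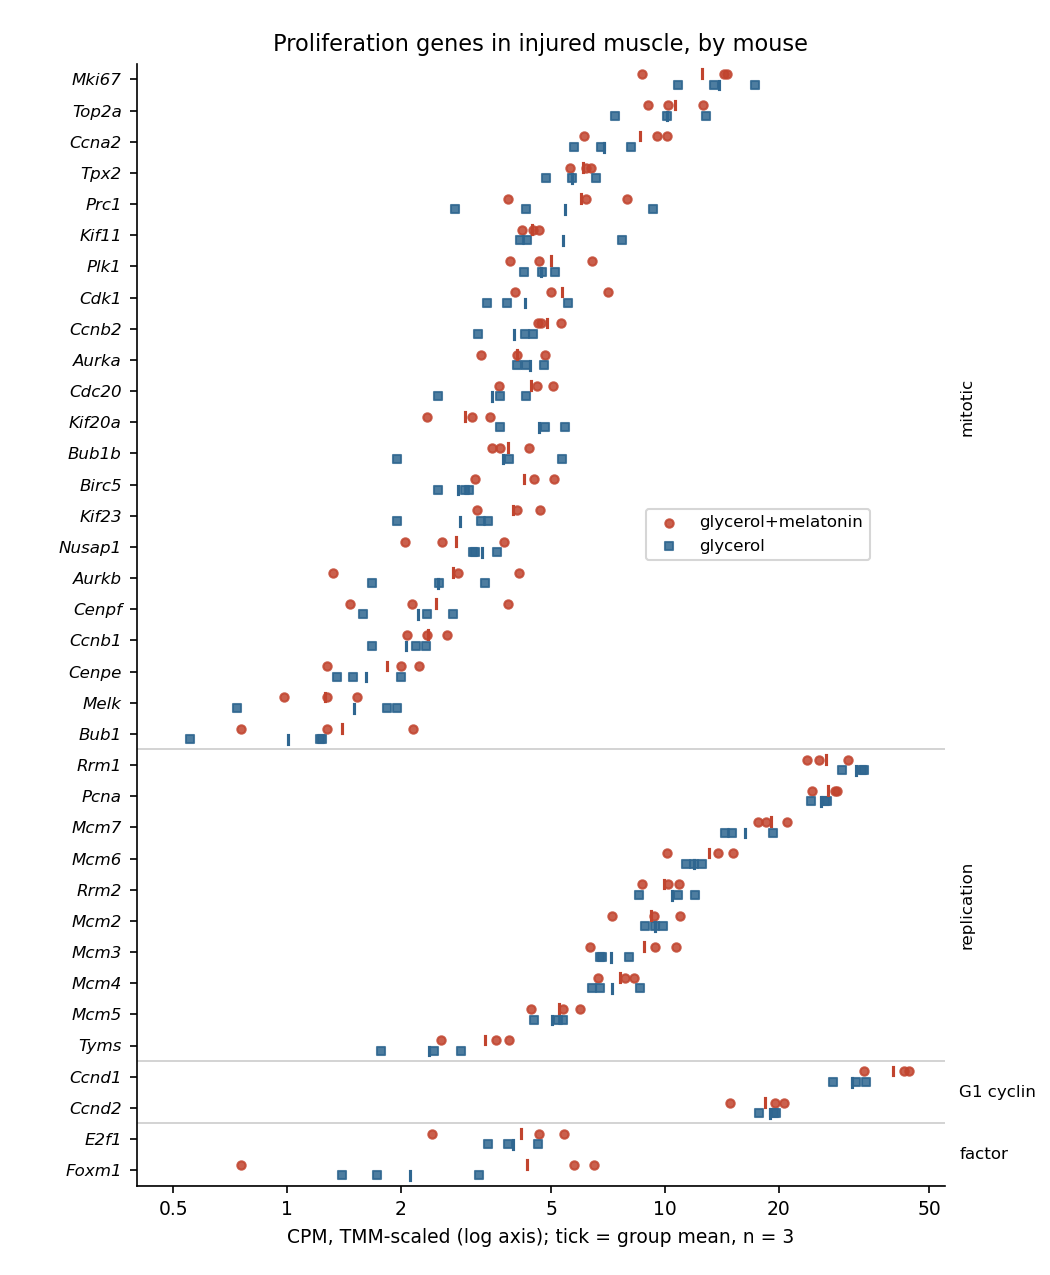
CPM of the 36 genes on a log axis, 1 point per muscle (3 glycerol+melatonin, 3 glycerol), with a tick at each group's mean. The groups overlap in all but Birc5, Ccnb2 and Kif20a, and the points of a group lie farther apart for most mitotic than for most replication genes.

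Among the replication genes, the helicase subunits Mcm2 to Mcm7, which are loaded onto origins in G1 and unwind DNA in S phase, had log2 fold changes between -0.03 and 0.30. Mcm2 had 9.36, 10.9 and 7.26 CPM in the glycerol+melatonin muscles and 9.86, 8.84 and 9.43 CPM in the glycerol muscles, with a log2 fold change of -0.03 ± 0.19 (SE; edgeR adjusted p 0.949). Mcm3 had 6.35, 9.43 and 10.7 CPM in the glycerol+melatonin muscles and 8.0, 6.82 and 6.71 CPM in the glycerol muscles, or 8.81 ± 2.22 CPM with melatonin and 7.18 ± 0.718 CPM without it (SD, n = 3 each). Its log2 fold change was 0.30 ± 0.22 (SE; edgeR adjusted p 0.479), and its lowest muscle belonged to the melatonin group although both of the highest did too. Mcm7 had 17.6, 18.5 and 21 CPM in the glycerol+melatonin muscles and 15.0, 14.4 and 19.3 CPM in the glycerol muscles. The groups overlapped, with a log2 fold change of 0.23 ± 0.17 (SE; edgeR adjusted p 0.488), and Mcm7 shares 321 exon bases with Ap4m1 and 64 with Cops6 on the opposite strand, whose reads cannot be told apart where counting ignores strand. Ap4m1 had a log2 fold change of 0.46 ± 0.17 (SE), with an edgeR adjusted p of 0.201. Cops6 was at 0.05 ± 0.16 (SE), with an edgeR adjusted p of 0.899. The other subunits, Mcm4, Mcm5 and Mcm6, had log2 fold changes of 0.07 ± 0.19, 0.06 ± 0.20 and 0.13 ± 0.19 (SE), with edgeR adjusted p-values from 0.744 to 0.891.

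Pcna had the smallest standard error of the 36 genes. It had 28.1, 28.4 and 24.5 CPM in the glycerol+melatonin muscles and 24.3, 26.5 and 26.8 CPM in the glycerol muscles, or 27.0 ± 2.19 CPM with melatonin and 25.9 ± 1.37 CPM without it (SD, n = 3 each), and a log2 fold change of 0.06 ± 0.14 (SE; edgeR adjusted p 0.837). The enzymes that supply deoxynucleotides did not share a direction. Rrm1 had 30.5, 25.6 and 23.7 CPM in the glycerol+melatonin muscles and 33.5, 33.3 and 29.4 CPM in the glycerol muscles, with a log2 fold change of -0.27 ± 0.16 (SE; edgeR adjusted p 0.365). The groups overlapped, since the highest glycerol+melatonin muscle exceeded the lowest glycerol muscle. Rrm2, the small subunit that is made in S phase, had 10.9, 10.2 and 8.70 CPM in the glycerol+melatonin muscles and 10.8, 8.52 and 12.0 CPM in the glycerol muscles, and its log2 fold change was -0.07 ± 0.19 (SE; edgeR adjusted p 0.857). Tyms, thymidylate synthase, had the highest fold change of the set. It had 2.56, 3.88 and 3.57 CPM in the glycerol+melatonin muscles and 2.89, 1.77 and 2.45 CPM in the glycerol muscles, or 3.34 ± 0.690 CPM with melatonin and 2.37 ± 0.563 CPM without it (SD, n = 3 each). The groups overlapped through the first muscle of each, and the log2 fold change was 0.49 ± 0.27 (SE; edgeR adjusted p 0.343).

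Of the mitotic genes, Birc5, Bub1 and Kif23 had the highest fold changes. Birc5 (survivin), a subunit of the chromosomal passenger complex that corrects kinetochore attachments, had 3.15, 5.09 and 4.49 CPM in the glycerol+melatonin muscles and 2.96, 2.51 and 3.04 CPM in the glycerol muscles. Every glycerol+melatonin muscle stood above every glycerol muscle, but the closest pair differed by little, and the log2 fold change was 0.58 ± 0.24 (SE; edgeR adjusted p 0.237). Bub1, a kinase of the spindle checkpoint, had 0.754, 2.16 and 1.28 CPM in the glycerol+melatonin muscles and 1.24, 0.553 and 1.22 CPM in the glycerol muscles, and its log2 fold change of 0.48 ± 0.46 (SE; edgeR adjusted p 0.578) came down to 0.02 without glycerol+melatonin replicate 2. Kif23, a kinesin of the central spindle, had 3.17, 4.67 and 4.06 CPM in the glycerol+melatonin muscles and 3.41, 1.96 and 3.26 CPM in the glycerol muscles, with a log2 fold change of 0.47 ± 0.28 (SE; edgeR adjusted p 0.375). In Bub1 and Kif23 the groups overlapped. Ccnb2 also did not overlap between the groups. It had 4.61, 4.71 and 5.30 CPM in the glycerol+melatonin muscles and 4.47, 3.20 and 4.26 CPM in the glycerol muscles, or 4.87 ± 0.371 CPM with melatonin and 3.98 ± 0.681 CPM without it (SD, n = 3 each), and a log2 fold change of 0.29 ± 0.21 (SE; edgeR adjusted p 0.451). The related Ccnb1, the main mitotic cyclin, overlapped, at 0.19 ± 0.24 on the log2 scale (edgeR adjusted p 0.684).

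Kif20a, a kinesin needed to complete cell division, had the lowest fold change of the 36 genes. It had 2.35, 3.45 and 3.09 CPM in the glycerol+melatonin muscles and 5.44, 3.66 and 4.83 CPM in the glycerol muscles, or 2.96 ± 0.559 CPM with melatonin and 4.64 ± 0.901 CPM without it (SD, n = 3 each). All 3 glycerol+melatonin muscles were below all 3 glycerol muscles, and the log2 fold change was -0.65 ± 0.24 (SE; edgeR adjusted p 0.209). Kif20a shares 1271 exon bases with Cdc23, a subunit of the anaphase-promoting complex on the opposite strand, which had a log2 fold change of 0.01 ± 0.14 (SE; edgeR adjusted p 0.977). Cdc23 had 24.3 to 27.5 CPM, more than Kif20a in every muscle, and how many of its reads entered Kif20a was not tested. Kif11, the kinesin that pushes spindle poles apart, followed with 4.48, 4.65 and 4.19 CPM in the glycerol+melatonin muscles and 7.71, 4.12 and 4.31 CPM in the glycerol muscles. Its log2 fold change of -0.28 ± 0.27 (SE; edgeR adjusted p 0.588) rested on the first glycerol muscle, without which it was 0.07. Melk, a kinase of dividing cells, had 0.982, 1.53 and 1.28 CPM in the glycerol+melatonin muscles and 1.95, 0.737 and 1.84 CPM in the glycerol muscles and a log2 fold change of -0.25 ± 0.39 (SE; edgeR adjusted p 0.759). In Melk, too, the glycerol muscles spanned both the lowest and the highest values.

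The genes most often used to mark dividing cells overlapped between the groups. Mki67, which encodes the Ki-67 antigen of cycling cells, had 8.68, 14.5 and 14.3 CPM in the glycerol+melatonin muscles and 17.3, 10.8 and 13.5 CPM in the glycerol muscles, or 12.5 ± 3.32 CPM with melatonin and 13.9 ± 3.23 CPM without it (SD, n = 3 each). Its log2 fold change was -0.15 ± 0.25 (SE; edgeR adjusted p 0.779), and it turned to 0.09 when libraries were scaled by size alone and to 0.06 without glycerol+melatonin replicate 1. Top2a, the topoisomerase that untangles sister chromosomes, had 9.02, 12.6 and 10.2 CPM in the glycerol+melatonin muscles and 12.8, 7.39 and 10.1 CPM in the glycerol muscles, with a log2 fold change of 0.07 ± 0.24 (SE; edgeR adjusted p 0.899) that turned to -0.11 without glycerol replicate 2. Cdk1, the kinase that starts mitosis, had 4.02, 7.05 and 4.98 CPM in the glycerol+melatonin muscles and 3.83, 3.39 and 5.54 CPM in the glycerol muscles, or 5.35 ± 1.55 CPM with melatonin and 4.25 ± 1.14 CPM without it (SD, n = 3 each), and a log2 fold change of 0.33 ± 0.28 (SE; edgeR adjusted p 0.526). Ccna2 had 6.10, 10.1 and 9.51 CPM in the glycerol+melatonin muscles and 8.10, 5.76 and 6.79 CPM in the glycerol muscles, and its log2 fold change was 0.32 ± 0.24 (SE; edgeR adjusted p 0.479). Aurka had 3.27, 4.82 and 4.06 CPM in the glycerol+melatonin muscles and 4.30, 4.79 and 4.07 CPM in the glycerol muscles, at -0.11 ± 0.21 (SE; edgeR adjusted p 0.802) on the log2 scale. None of them passed the test. The remaining mitotic genes, which include the mitotic kinases Plk1 and Aurkb, the checkpoint kinase Bub1b, the anaphase activator Cdc20, the spindle proteins Tpx2, Nusap1 and Prc1 and the kinetochore proteins Cenpe and Cenpf, overlapped as well. Their log2 fold changes ran from -0.23 for Nusap1 to 0.34 for Cdc20, with edgeR adjusted p-values from 0.471 to 0.954.

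Ccnd1, cyclin D1, which couples growth signals to entry into the cell cycle, was the most abundant of the 36 genes in CPM. It had 33.5, 42.8 and 44.1 CPM in the glycerol+melatonin muscles and 31.9, 27.9 and 33.9 CPM in the glycerol muscles, or 40.2 ± 5.78 CPM with melatonin and 31.2 ± 3.07 CPM without it (SD, n = 3 each). The groups overlapped only through the first glycerol+melatonin muscle, and the log2 fold change was 0.36 ± 0.16 (SE; edgeR adjusted p 0.266). Ccnd1 shares 1100 exon bases with LTO1 on the opposite strand, a gene with 4.10 to 7.09 CPM. Ccnd2, cyclin D2, had 14.9, 19.6 and 20.7 CPM in the glycerol+melatonin muscles and 19.6, 19.4 and 17.7 CPM in the glycerol muscles and a log2 fold change of -0.04 ± 0.17 (SE; edgeR adjusted p 0.920). Foxm1, the activator of the mitotic programme, had the highest fold change of all, but on widely scattered values. It had 0.754, 6.48 and 5.74 CPM in the glycerol+melatonin muscles, from 33, 351 and 270 reads, and 1.73, 3.22 and 1.40 CPM in the glycerol muscles, from 70, 140 and 57 reads. The lowest and the highest of the 6 muscles both belonged to the melatonin group, and the log2 fold change was 1.03 ± 0.67 (SE; edgeR adjusted p 0.412). Leaving out 1 muscle at a time moved it between 0.62 and 1.53. E2f1, an activator of replication genes, had 2.42, 5.41 and 4.64 CPM in the glycerol+melatonin muscles and 4.62, 3.41 and 3.85 CPM in the glycerol muscles, with a log2 fold change of 0.07 ± 0.31 (SE; edgeR adjusted p 0.920). The groups overlapped in Ccnd2, Foxm1 and E2f1.

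No difference between the groups passed the test, and within the groups the mitotic genes shared an order of muscles. In the glycerol group, replicate 2 was the lowest muscle for 21 of 22 mitotic genes, while it was the lowest for 29.4% of all genes. In the glycerol+melatonin group, replicate 1 was the lowest for 19 of 22 (34.2% of all genes) and replicate 2 the highest for 20 of 22 (30.8% of all genes). Across all 6 muscles, glycerol replicate 2 was the lowest for 14 of the 22 and glycerol+melatonin replicate 2 the highest for 12. The replication genes did not show this to the same extent: glycerol replicate 2 was the lowest of its group for 6 of 10, and glycerol+melatonin replicate 1 of its own for 5 of 10. The order was read off these same values and was not tested.

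As a mean over genes of log2 CPM, each gene centred on its own mean, the mitotic level was -0.28, 0.35 and 0.09 in glycerol+melatonin replicates 1 to 3 and 0.20, -0.43 and 0.07 in glycerol replicates 1 to 3. The replication level was -0.05, 0.15 and 0.03 in the glycerol+melatonin muscles and 0.04, -0.16 and -0.01 in the glycerol muscles. The 2 sets thus had the same highest and the same lowest muscle, with a narrower range for replication. Their difference, mitotic minus replication, does not depend on how libraries are scaled. It was -0.23, 0.20 and 0.05 in the glycerol+melatonin muscles and 0.16, -0.26 and 0.08 in the glycerol muscles, so it spread alike in both groups, around means that were nearly equal. Scaling by library size alone, by the upper quartile or by RLE factors left glycerol replicate 2 as the lowest mitotic muscle (-0.59, -0.46 and -0.41) and glycerol+melatonin replicate 2 as the highest (0.52, 0.36 and 0.34).

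**Figure D3:**
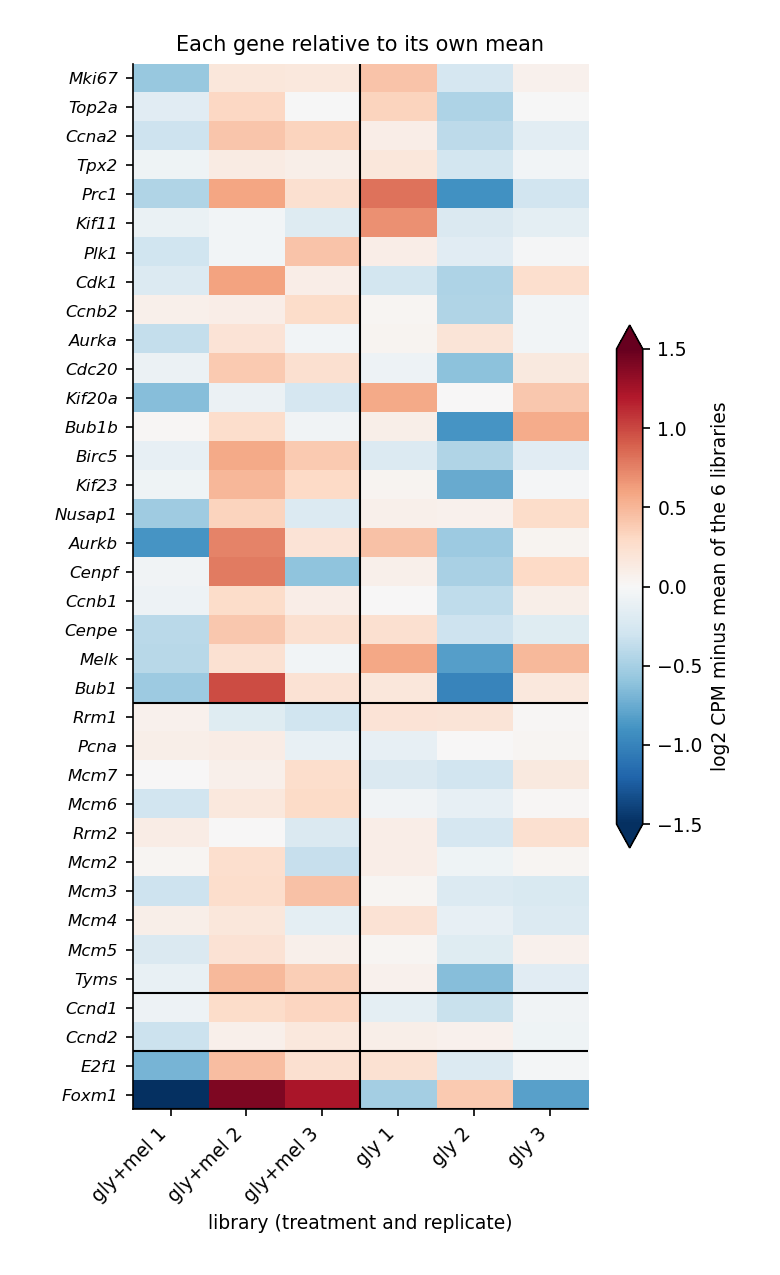
Log2 CPM of each of the 36 genes (rows, by role) in each muscle (columns, glycerol+melatonin left of glycerol), centred on the gene's mean over the 6 muscles. The mitotic rows are low in glycerol replicate 2 and glycerol+melatonin replicate 1 and high in glycerol+melatonin replicate 2, and the replication rows are paler.

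The spread of single genes differed in the same way. The median within-group SD of log2 CPM was 0.333 over the mitotic genes in the glycerol+melatonin group and 0.35 in the glycerol group. It was 0.202 with melatonin and 0.136 without it over the replication genes, and over all genes 0.258 with melatonin and 0.235 without it. Among the 6070 genes in the CPM range of the mitotic genes the medians were 0.266 with melatonin and 0.251 without it. Among the 7580 genes in the CPM range of the replication genes they were 0.226 with melatonin and 0.209 without it. The counting error had a median of 0.109 on the log2 scale for mitotic and 0.069 for replication genes. The SD exceeded the counting error in both groups for 20 of 22 mitotic and 10 of 10 replication genes. The larger of the within-group ranges had a median of 0.78 for the mitotic genes (0.44 to 1.72) and 0.46 for the replication genes (0.21 to 0.74).

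Other genes of the same pathways, from lists that were written down with earlier results of these data known, were read from the same fit. None of the genes in these lists passed edgeR's test. DESeq2 called 5 of the 153 it tested (3.27%), against 5.01% of all genes: Gins2, Ccnd3 and Hjurp were higher with melatonin, and Rrm2b and Rbl2, a relative of the retinoblastoma protein, were lower. Rbl2 had a DESeq2 log2 fold change of -0.69 ± 0.21 (SE; DESeq2 adjusted p 0.0321). Among 21 genes of origin licensing and firing, 14 stood above 0 with a median log2 fold change of 0.14, and 4 had an unadjusted edgeR p under 0.05, all higher with melatonin, against 10.1% of all genes higher and 19.5% in either direction. Of those with a mean of at least 1 CPM, the highest were Gins2, a subunit of the GINS helicase complex, at 0.996 ± 0.305 (SE; edgeR adjusted p 0.173), and Cdc7, the kinase that fires origins, at 0.73 ± 0.26 (SE; edgeR adjusted p 0.201). Gins2 shares 2758 exon bases with Gse1 on the opposite strand. The lowest were the origin recognition subunit Orc3 at -0.30 ± 0.16 and the checkpoint scaffold Topbp1 at -0.20 ± 0.16 (SE). Among 26 enzymes of the replication fork 17 stood above 0, with a median of 0.11, between the checkpoint adaptor Clspn at -0.68 ± 0.40 and the polymerase delta subunit Pold3 at 0.54 ± 0.21 (SE). Next to these stood the catalytic subunit of polymerase alpha, Pola1, at -0.25 ± 0.26, and the primase subunit Prim1 at 0.51 ± 0.25 (SE).

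The 12 genes of nucleotide supply had a median log2 fold change of 0.03 and were split, with 7 above 0. Rrm2b, the ribonucleotide reductase subunit that cells outside S phase use, was the lowest of them. It had 10.8, 8.54 and 6.36 CPM in the glycerol+melatonin muscles and 20.3, 19.3 and 12.3 CPM in the glycerol muscles. All of the glycerol+melatonin muscles were below all of the glycerol muscles, with a log2 fold change of -1.02 ± 0.26 (SE; edgeR adjusted p 0.141). Paics, an enzyme of purine synthesis, followed at -0.47 ± 0.20 (SE; edgeR adjusted p 0.248). Dctpp1, which clears dCTP, was the highest, at 0.58 ± 0.17 (SE; edgeR adjusted p 0.167). The 20 regulators of G1 and S-phase entry had a median of 0.01, with 10 above 0. Ccnd3, cyclin D3, which differentiating muscle cells also make, stood highest. It had 13.4, 15.6 and 35.5 CPM in the glycerol+melatonin muscles and 6.99, 6.49 and 10.7 CPM in the glycerol muscles, and its log2 fold change was 1.42 ± 0.38 (SE; edgeR adjusted p 0.151). Its groups did not overlap, but the third glycerol+melatonin muscle was far above the others, and Ccnd3 shares 361 exon bases with Bysl on the opposite strand. Cdk2, the kinase that cyclin E activates, followed at 0.57 ± 0.38 (SE; edgeR adjusted p 0.429). The lowest were the phosphatase Cdc25a, which activates CDK2, at -0.84 ± 0.54 (SE; edgeR adjusted p 0.412), and Ccne2, cyclin E2, which drives the entry into S phase, at -0.78 ± 0.25 (SE; edgeR adjusted p 0.185). Ccne2 shares 609 exon bases with Ints8 on the opposite strand.

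Of 7 CDK inhibitors, which hold cells out of the cycle, 5 stood above 0, with a median log2 fold change of 0.19. Cdkn1a (p21), which rises as myoblasts leave the cycle, had 155, 116 and 174 CPM in the glycerol+melatonin muscles and 91, 108 and 99.1 CPM in the glycerol muscles. The groups did not overlap, and the log2 fold change was 0.58 ± 0.19 (SE; edgeR adjusted p 0.182). Cdkn1b (p27) was at -0.56 ± 0.26 (SE; edgeR adjusted p 0.286) and Cdkn1c (p57) at 0.30 ± 0.18 (SE; edgeR adjusted p 0.387). The INK4 inhibitors Cdkn2a and Cdkn2c were at 0.42 ± 0.39 and -0.03 ± 0.21 (SE). The 70 further genes of kinetochore, spindle and cytokinesis that were tested had a median of 0.08, with 45 above 0, and 5 higher and 1 lower at an unadjusted edgeR p under 0.05, against 10.1% higher and 9.39% lower of all genes. Hjurp, the chaperone that deposits the centromeric histone, was the second highest, with 45.5, 67.0 and 66.1 CPM in the glycerol+melatonin muscles and 39.4, 34.5 and 32.6 CPM in the glycerol muscles. Its log2 fold change was 0.75 ± 0.19 (SE; edgeR adjusted p 0.141), and it had more CPM than any of the 22 mitotic genes. Zwilch, a subunit of a checkpoint complex at the kinetochore, was the highest, at 0.92 ± 0.27 (SE; edgeR adjusted p 0.17). The microtubule polymerase Ckap5 was the other way, at -0.58 ± 0.16 (SE; edgeR adjusted p 0.154). Within the groups of these 70 genes, glycerol+melatonin replicate 1 was the lowest for 53 of 70 (75.7%), glycerol+melatonin replicate 2 the highest for 43 (61.4%), and glycerol replicate 2 the lowest for 41 (58.6%).

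Markers of the cells that a regenerating muscle holds were read beside the mitotic level. All 8 markers of newly formed fibres, such as embryonic myosin Myh3 and the fusion factor Mymk, had fold changes above 0. Their mean centred log2 CPM was 0.03, 0.35 and 0.50 in the glycerol+melatonin muscles and 0.06, -0.76 and -0.18 in the glycerol muscles, so glycerol replicate 2, the lowest mitotic muscle, was also the lowest here. Their summed level ranged from 363 to 495 CPM with melatonin and from 263 to 453 CPM without it. The 10 muscle stem cell markers stood at 0.03, 0.20 and 0.08 in the glycerol+melatonin muscles and at 0.0022, -0.05 and -0.26 in the glycerol muscles, and summed to 195 to 204 CPM with melatonin and to 165 to 181 CPM without it. Of these markers 6 had fold changes above 0 and 4 below. Single genes did not overlap between the groups in 2 of the 10, Chrdl2 and Sdc4, both higher with melatonin, as were 13.6% of all genes. Pax7 and Myod1 overlapped. Sdc4 had 46.0, 55.3 and 31.5 CPM in the glycerol+melatonin muscles and 20.7, 29.1 and 27.6 CPM in the glycerol muscles. The summed stem cell level was apart between the groups only with both Sdc4 and Myod1 in it. Without Sdc4, or without Myod1, the sums of the other stem cell markers overlapped. The 12 macrophage markers stood at -0.24, 0.14 and -0.12 in the glycerol+melatonin muscles and at -0.04, 0.12 and 0.14 in the glycerol muscles, and the 10 markers of fibro-adipogenic progenitors at -0.23, 0.03 and -0.19 in the glycerol+melatonin muscles and at -0.08, 0.21 and 0.27 in the glycerol muscles. By these means, the macrophage, progenitor and stem cell markers and the mitotic genes were lowest in replicate 1 and highest in replicate 2 within the glycerol+melatonin group. They did not share this order in the glycerol group. By the median over genes, the stem cell markers were instead lowest in glycerol+melatonin replicate 3, at 0.018, 0.208 and -0.056 in replicates 1 to 3. The newly formed fibre and endothelial markers were highest in replicate 3 of that group. The progenitor markers, most of whose CPM are the collagens Col1a1, Col1a2 and Col3a1, summed to 6301 to 7809 CPM with melatonin and 8879 to 9637 CPM without it. Their centred levels overlapped between the groups, and 4 of the 10 (Dpt, Ly6a, Cd34 and Pi16) had fold changes above 0. The 10 endothelial markers were at -0.13, -0.09 and 0.45 in the glycerol+melatonin muscles and at -0.06, -0.14 and -0.03 in the glycerol muscles. None of the markers of these 5 cell types was at 0 in any muscle. The 5 erythroid markers tested stood at 0.59, 0.15 and -1.19 in the glycerol+melatonin muscles and at -0.61, 0.75 and 0.32 in the glycerol muscles, so within each group they were highest in the muscle with the lowest mitotic level. The 10 markers of mature fibres summed to 142860, 119357 and 92653 CPM in the glycerol+melatonin muscles and to 136534, 149483 and 127269 CPM in the glycerol muscles, again highest in those muscles, while their centred levels were 0.17, -0.0086 and -0.28 with melatonin and 0.10, 0.08 and -0.05 without it. The 9 lymphocyte markers tested summed to 11.1 to 19.9 CPM with melatonin and to 8.57 to 18.9 CPM without it. The 4 neutrophil markers tested summed to 5.23 to 18.5 CPM with melatonin and to 4.28 to 4.70 CPM without it, and S100a9 among them was at 0 in glycerol replicate 2. The part of these cells in the mitotic levels was not tested.

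**Figure D4:**
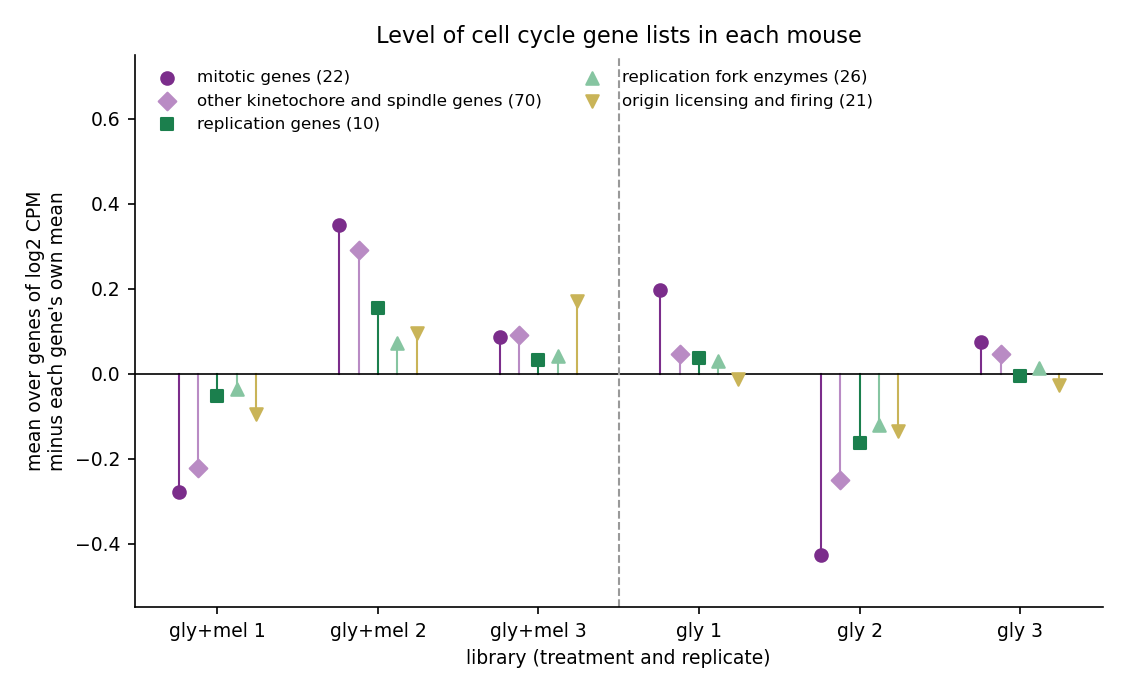
Mean over genes of log2 CPM, each gene centred on its mean over the 6 muscles, for the mitotic and replication genes and for the lists of kinetochore and spindle, fork and licensing genes, 1 point per list and muscle (gly+mel, glycerol+melatonin; gly, glycerol). Mitotic genes range from -0.43 in glycerol replicate 2 to 0.35 in glycerol+melatonin replicate 2, and replication genes from -0.16 to 0.15 in the same muscles.

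The upstream sequence of the genes was searched for the letters of the elements named above. RefSeq promoter windows on build GRCm38.p6, from 250 bases before to 50 after the transcription start, were found for 28 of the 36 genes, 18 of them mitotic, 9 of replication, and E2f1. The windows of Foxm1, Ccna2, Tpx2, Ccnd1, Ccnd2, Aurkb, Kif20a and Mcm4 were not used here. Where a gene had several windows, the one with the most matches was taken, for these genes and all others alike. A stretch after the start was found in a GENCODE transcript of the same gene for 21 of the 28 windows. It was not found for Aurka, Birc5, Kif11, Kif23, Mki67, Mcm5 and Mcm6, whose start positions are thus less certain. Both strands were searched. The CHR element was taken as TTTGAA with the variant form TTCGAA, and the CCAAT box by the letters of its name. The E2F element was taken as TTCCCGC, with the further forms TTCGCGC and likewise TTGGCGC and also the form TTGCCGC. The 3 mitotic and the 3 replication windows with the most matches (Mcm3 tied with Mcm5 and came first by name) are shown to let the elements be seen in place, each 5′ to 3′ on the gene's strand with matches to any of these motifs in capitals. The mitotic ones are Top2a (chr11:99024140-99024439), Cdk1 (chr10:69352863-69353162) and Mki67 (chr7:135716330-135716629), and the replication ones Mcm6 (chr1:128359656-128359955), Mcm7 (chr5:138171834-138172133) and Mcm3 (chr1:20820263-20820562), all 6 on the minus strand.
Top2a: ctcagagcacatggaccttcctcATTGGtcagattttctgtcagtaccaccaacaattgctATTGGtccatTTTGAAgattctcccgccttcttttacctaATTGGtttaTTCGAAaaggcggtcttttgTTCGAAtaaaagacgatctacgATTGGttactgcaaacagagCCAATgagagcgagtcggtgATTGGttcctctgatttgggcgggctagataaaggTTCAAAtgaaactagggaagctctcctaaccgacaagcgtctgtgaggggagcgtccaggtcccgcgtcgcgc
Cdk1: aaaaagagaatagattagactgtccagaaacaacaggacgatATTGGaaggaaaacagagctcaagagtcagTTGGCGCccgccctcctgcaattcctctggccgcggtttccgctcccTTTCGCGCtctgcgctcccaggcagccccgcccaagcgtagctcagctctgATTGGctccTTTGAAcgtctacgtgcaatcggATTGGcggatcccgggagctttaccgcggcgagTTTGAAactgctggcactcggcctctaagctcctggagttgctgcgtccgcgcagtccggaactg
Mki67: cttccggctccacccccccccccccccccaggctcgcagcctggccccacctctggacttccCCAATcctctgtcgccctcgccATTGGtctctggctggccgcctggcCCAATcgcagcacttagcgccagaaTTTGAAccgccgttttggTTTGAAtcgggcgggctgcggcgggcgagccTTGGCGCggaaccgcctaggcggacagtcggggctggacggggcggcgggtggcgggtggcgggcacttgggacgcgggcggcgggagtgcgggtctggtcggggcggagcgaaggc
Mcm6: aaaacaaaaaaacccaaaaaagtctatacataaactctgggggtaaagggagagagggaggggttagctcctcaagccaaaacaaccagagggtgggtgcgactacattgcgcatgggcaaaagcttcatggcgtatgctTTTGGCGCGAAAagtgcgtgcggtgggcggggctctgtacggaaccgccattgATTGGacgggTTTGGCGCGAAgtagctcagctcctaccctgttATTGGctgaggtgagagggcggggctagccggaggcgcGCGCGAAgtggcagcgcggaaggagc
Mcm7: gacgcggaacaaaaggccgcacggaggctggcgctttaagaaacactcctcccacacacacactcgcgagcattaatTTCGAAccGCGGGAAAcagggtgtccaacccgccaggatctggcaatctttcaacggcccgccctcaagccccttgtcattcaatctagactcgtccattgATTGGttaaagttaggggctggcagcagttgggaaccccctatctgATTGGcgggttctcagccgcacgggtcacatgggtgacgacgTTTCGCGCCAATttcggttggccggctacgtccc
Mcm3: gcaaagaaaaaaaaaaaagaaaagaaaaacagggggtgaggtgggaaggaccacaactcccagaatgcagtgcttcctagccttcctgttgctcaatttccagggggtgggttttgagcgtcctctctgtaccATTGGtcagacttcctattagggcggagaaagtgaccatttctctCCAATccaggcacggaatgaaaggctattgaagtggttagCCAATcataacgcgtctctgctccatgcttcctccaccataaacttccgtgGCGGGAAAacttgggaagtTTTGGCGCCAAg

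The windows differed by set in these letters. The CHR letters were in 13 of 18 mitotic windows (72.2%) and in 2 of 9 replication windows (22.2%), against 15.5% of the windows of all genes tested with one (1796 of 11584) and 20.8% of all genes in the RefSeq table. All 13 mitotic windows with CHR also held CCAAT, as did the 2 replication windows with CHR. This combination was found in 6.72% of genes tested. CCAAT alone did not separate the sets, at 15 of 18 mitotic (83.3%) and 8 of 9 replication windows (88.9%), and stood at 41.5% over the genes tested. The E2F letters were in 3 of 18 mitotic windows (16.7%) and 6 of 9 replication windows (66.7%), against 17.3% of genes tested. With a further T in front they were in 1 of 18 mitotic windows (5.56%), that of Cdk1, and 4 of 9 replication windows (44.4%), those of Mcm3, Mcm5, Mcm6 and Mcm7, against 4.12%. Of the 20 CHR matches in mitotic windows, 14 began between 100 bases before and 50 after the start, against 36.6% of those in the genes tested. The window of Top2a held 4 CHR and 6 CCAAT matches, the most of the 28. Birc5, Melk, Nusap1, Tyms and E2f1 had none of the letters in the window.

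**Figure D5:**
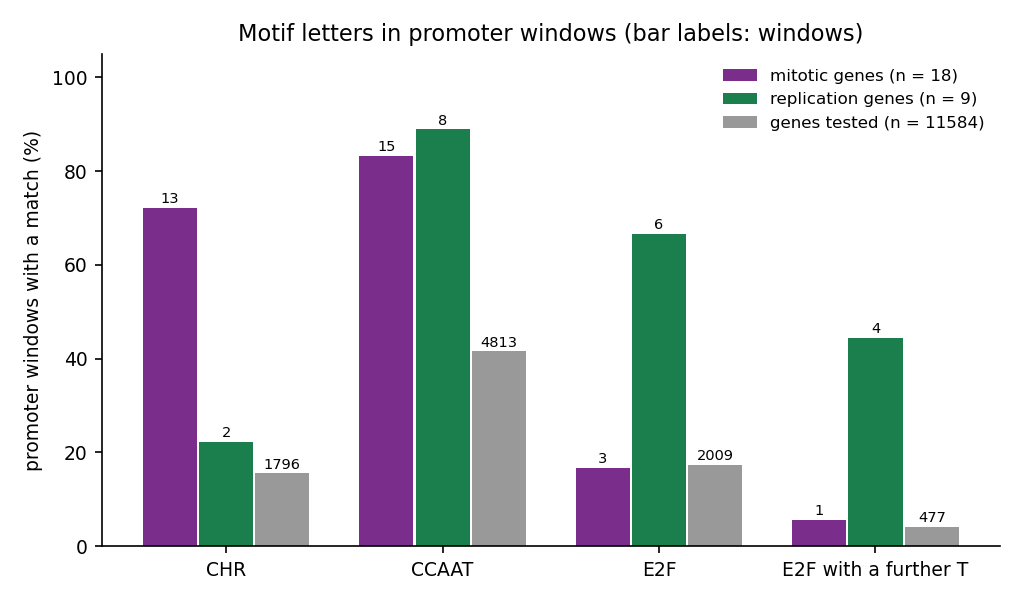
Share of promoter windows (%) with the CHR, CCAAT and E2F letters among 18 mitotic genes, 9 replication genes and 11584 genes tested, with the number of windows above each bar. The CHR bar is highest for mitotic genes (72.2%), the E2F bars are highest for replication genes (66.7% and 44.4%), and the CCAAT bars are high for both.

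A match is a string of letters, and its presence says nothing of whether a factor was bound in these muscles. Birc5, with no match, and Ccnb2, with 2 CHR and 3 CCAAT matches, both stood higher in all 3 glycerol+melatonin muscles, but neither passed the test. Whether the letters go with the fold changes or with the order of muscles that the mitotic genes shared was not tested.

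Reads of an antisense partner could enter some of these values, since the sources used here do not give the strand setting of the counting. Exon bases on the opposite strand are shared with another gene of the table by 7 of the 36 genes. Beside Ccnd1, Kif20a and Mcm7, these are Ccna2 (510 bases with Exosc9), Prc1 (911 with Rccd1), Nusap1 (172 with Oip5) and Cdc20 (53 with Elovl1). The same holds for Rbl2 (892 bases with Gm45464 and 693 with Aktip), Paics (272 with Ppat) and Cdk2 (34 with Pmel) among the other genes named. Prc1, which bundles the microtubules of the central spindle, had 3.84, 7.94 and 6.19 CPM in the glycerol+melatonin muscles and 9.26, 2.79 and 4.29 CPM in the glycerol muscles, and Rccd1 stood at 7.70, 7.81 and 11.3 CPM in the glycerol+melatonin muscles and at 5.95, 4.67 and 4.38 CPM in the glycerol muscles. The order of the muscles was not the same in the 2 genes.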

How the data were processed

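RNA of 6 injured tibialis anterior muscles, 3 glycerol+melatonin and 3 glycerol, was read from 1 table of raw counts per gene that the authors deposited. The submitters' processing notes list HISAT2 2.0 and StringTie 1.3.3b beside FastQC 0.11.2, Trimmomatic 0.36, bedtools 2.26.0 and DESeq2 1.12.4, on build mm10. The sources used here do not state which of them counted the reads, with which annotation or with what strand setting. No gene in the table had fewer than 28 reads in all, so low genes are absent from it.

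Symbols were found for 16260 of 16289 identifiers, with lengths of the longest transcript and exon overlaps from GENCODE on GRCm38. All counts were fitted with edgeR 4.0.16 (R 4.3.3; TMM factors, filterByExpr, quasi-likelihood test, no covariate), which kept 16259 genes and all 36 members; p-values were Benjamini-Hochberg adjusted over all of them, at a threshold of 0.05. The code was tested on simulated data. CPM are scaled by the TMM factors, and centred log2 CPM used a prior count of 2. Counting error was below the within-group SD of log2 CPM in both groups for 20 of 22 mitotic and 10 of 10 replication genes. No 2 libraries of a group were close enough to be 1 library deposited again (65.9 to 181 chi-square units per degree of freedom), and all 6 were kept.

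The 36 members, the gene lists and the tests were chosen with earlier results of these data known. Given in full were the 3 highest and 3 lowest fold changes and the 3 highest levels per kilobase of each set, and Ccnd1, Ccnd2, E2f1, Foxm1, Mki67, Top2a, Pcna, Mcm2 and Cdk1; from other lists, the 2 highest and 2 lowest with a mean of at least 1 CPM, with the CDK inhibitors; the values of 2 such genes are not reported here. Ccnb2, as a member without overlap, Prc1, for its antisense partner, and Rbl2 were added after their values were seen. Alternatives were RLE, upper quartile and library size scaling, no filter or 1 CPM in 3 libraries, DESeq2 1.42.0, limma-voom (limma 3.58.1), also with sample weights, a length correction, a replicate block and leaving out each library.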

Additional observations from a re-analysis of the deposited data

How the results depend on the processing

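No member passed under any of the alternatives run. Against 12 genes passing over the whole table, DESeq2 called 752, limma-voom with sample weights 199, the transcript length correction 7 and leaving out 1 library 6 to 27. Deviations of same-numbered muscles from their group means correlated at -0.0146, 0.00429 and -0.0480, and those of differently numbered muscles at -0.149 to 0.141. These values cannot tell whether same-numbered muscles were handled together. With the replicate block, alone or with the length correction, 0 genes passed. The block's lowest adjusted p of a member was 0.289. The replication median was 0.28 with library size alone, where the median of all genes was 0.23. Leaving out 1 library gave 0.01 to 0.13 for it, -0.02 to 0.27 for the mitotic median and -0.07 to 0.16 for their difference. Of 612 member values under alternatives, 565 kept their direction and 47 turned; 18 of 36 members never turned. With library size alone Mki67 was at 0.091, Ccnd2 at 0.19, Aurka at 0.12, Mcm2 at 0.18 and Rrm2 at 0.12; with upper quartile factors Mcm2 was at 0.0024. With sample weights Plk1 was at -0.016, Mcm2 at 0.073, Rrm2 at 0.020 and Melk at 0.024. With the length correction Mki67 was at 0.038, Ccnd2 at 0.12, Mcm2 at 0.041 and Pcna at -0.12. With the length correction and the replicate block Mki67 was at 0.035, Ccnd2 at 0.11, Aurkb at -0.050, Plk1 at -0.016, Mcm2 at 0.024 and Pcna at -0.12. Leaving out 1 library gave -0.30 to 0.058 for Mki67, -0.44 to 0.075 for Kif11, -0.17 to 0.12 for Mcm2, -0.11 to 0.27 for Top2a, -0.26 to 0.41 for Bub1b, -0.27 to 0.46 for Aurkb, -0.30 to 0.44 for Cenpf, -0.015 to 0.21 for Tpx2, -0.18 to 0.76 for Prc1, -0.039 to 0.17 for Mcm5, -0.16 to 0.34 for E2f1, -0.0090 to 0.21 for Mcm4, -0.20 to 0.041 for Rrm2, -0.13 to 0.090 for Ccnd2, -0.26 to 0.019 for Aurka and -0.13 to 0.24 for Plk1. The causes of these turns were not tested. With 3 muscles a group the standard errors, 0.14 to 0.67, limit what difference could be seen.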
